A study of Rattus norvegicus with 6 samples.

Results

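The genes that make, store and recover dopamine and acetylcholine, together with the gene of the enzyme that sets the pace of melatonin synthesis, were examined in RNA of the rat neural retina. They were chosen by name as Th, Ddc, Slc6a3, Slc18a2, Chat, Slc18a3, Slc5a7, Ache and Aanat, by matching each name to the gene symbols of the deposited table without regard to case. Of these 9 genes, 8 had a row among the 19623 symbols of the table, and no row carried the symbol Slc18a3. The series holds 6 samples in 3 groups of 2, all taken at postnatal day 60 after surgery at postnatal day 21: Royal College of Surgeons (RCS) rats with a subretinal graft of human neural progenitor cells (hNPCs), RCS rats with sham surgery, and Long Evans rats with sham surgery. RCS rats lose their photoreceptors because of a mutation in the phagocytosis receptor gene Mertk, Long Evans rats are a pigmented wild-type strain, and sham eyes received the carrier medium without cells. The table gives a single FPKM (fragments per kilobase of transcript, scaled by the total of mapped fragments) for each gene and names no sample or group. Whether the values come from grafted RCS eyes, sham RCS eyes, Long Evans eyes or a pool of them is not known. The values below therefore compare genes with one another in rat retinal RNA, and no comparison between groups, spread between animals or likeness of pattern across samples can be given.

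Dopamine, acetylcholine and melatonin are each made in the retina by a small or specialised set of cells. A sparse type of amacrine cell uses tyrosine hydroxylase (Th) and then aromatic amino acid decarboxylase (Ddc) to make dopamine, packs it into vesicles through the vesicular monoamine transporter (Slc18a2) and takes it back up through the dopamine transporter (Slc6a3). Starburst amacrine cells make acetylcholine from choline with choline acetyltransferase (Chat), after the high-affinity choline transporter (Slc5a7) has brought choline in, and load it through the vesicular acetylcholine transporter (Slc18a3); acetylcholinesterase (Ache) ends the signal in the synaptic cleft. Melatonin is made from serotonin by serotonin N-acetyltransferase (Aanat) and acetylserotonin methyltransferase (Asmt), chiefly in photoreceptors within the eye and in the pineal gland, and Aanat is known for a transcript that rises at night in rats.

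The windows around the start sites of Th, Slc18a2 and Aanat are shown because Th and Slc18a2 were the dopamine genes listed above 1 FPKM and Aanat was the lowest of the 9 genes above 0. Each runs from 250 bases before to 50 bases after the start, comes from RefSeq in build GRCr8 and is written 5′ to 3′ on the strand of the gene. Th lies on the minus strand at chr1:207508169-207508468, Slc18a2 on the plus strand at chr1:268399771-268400070 and Aanat on the plus strand at chr10:102326073-102326372. Capitals mark matches to the motifs searched.
Th: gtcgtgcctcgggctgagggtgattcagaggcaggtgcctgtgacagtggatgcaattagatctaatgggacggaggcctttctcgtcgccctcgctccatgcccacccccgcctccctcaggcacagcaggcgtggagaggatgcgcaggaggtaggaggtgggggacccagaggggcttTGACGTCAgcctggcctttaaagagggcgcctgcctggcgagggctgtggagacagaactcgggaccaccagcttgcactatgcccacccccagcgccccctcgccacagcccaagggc
Slc18a2: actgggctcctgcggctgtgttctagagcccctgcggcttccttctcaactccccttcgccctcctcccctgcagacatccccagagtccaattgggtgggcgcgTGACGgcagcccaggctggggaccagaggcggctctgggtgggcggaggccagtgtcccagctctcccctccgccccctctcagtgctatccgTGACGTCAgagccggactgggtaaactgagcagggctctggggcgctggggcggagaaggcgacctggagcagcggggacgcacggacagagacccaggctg
Aanat: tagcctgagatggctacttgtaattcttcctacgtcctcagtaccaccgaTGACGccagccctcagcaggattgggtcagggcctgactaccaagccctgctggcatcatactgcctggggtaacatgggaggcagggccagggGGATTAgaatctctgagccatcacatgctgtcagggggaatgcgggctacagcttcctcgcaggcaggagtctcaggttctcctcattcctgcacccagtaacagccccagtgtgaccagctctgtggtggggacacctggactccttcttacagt
All 9 genes had at least 1 such window, and Ddc had 3. Both strands were searched for the core of the cyclic AMP response element (TGACG), the photoreceptor homeodomain motif of CRX and OTX2 (GGATTA), the E-box (CACGTG), the NR4A2 monomer motif (AAGGTCA) and the TATA box (TATAAA). The whole palindrome TGACGTCA, in which the core overlaps itself on the opposite strand, was added after the windows had been read. It occurred at position -69 of Th and -52 of Slc18a2, counted from the start site, and in 1.83% of all 33469 windows of this length. Its core TGACG was in windows of 7 of the 9 genes, all but Ddc and Slc18a3, and in 21.2% of all windows. GGATTA was found in Aanat alone of the 9 genes, at position -106, and in 7.17% of all windows. The E-box was in Chat and Ache (6.42% of all windows), while 1 window of Ddc and that of Slc5a7 held both the NR4A2 motif (4.61%) and the TATA box (14.2%), which overlap in Ddc. A match describes the letters in these windows and does not show that a factor binds there.

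The deposited values fell into a high, a middle and a low step. Ache was highest at 14.1 FPKM, and Slc18a2, Chat, Slc5a7 and Th lay between 2.34 and 3.09 FPKM. In the low step, Ddc and Aanat lay under 0.1 FPKM and Slc6a3 was listed at 0. Ddc and Aanat rest on about 2 fragments and 1 fragment, so Slc6a3 could not be ordered against them. Of the 8 genes measured, 5 reached 1 FPKM, against 61.0% of all symbols. Their median was 2.38 FPKM, against 3.17 FPKM over all symbols. An FPKM carries a number of fragments that can be read from its deposited bounds, if these lie 2 standard errors of a count from the value. So read, the 8 genes rested on 641 fragments, or 0.0105% of the fragments implied for the whole table, and Ache held 44.9% of them. In 5 of the 7 genes above 0 this number came within 0.02 of a whole number, the exceptions being Chat (62.5) and Ddc (1.88). Fragment numbers and intervals cover counting error only.

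**Figure D1:**
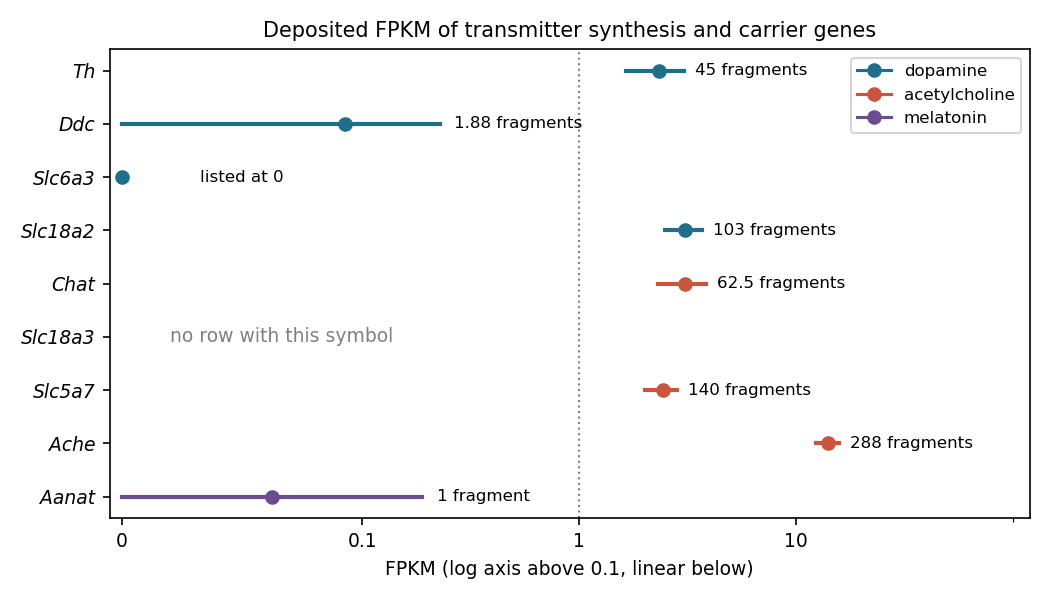
Deposited FPKM (x axis, logarithmic above 0.1 and linear below) of each gene by name (y axis), with points for the values, bars for the deposited lower and upper bounds, and the implied number of fragments beside each. Ache stands apart at 14.1 FPKM, 4 genes group between 2.34 and 3.09 FPKM, and Ddc, Aanat and Slc6a3 lie left of the dotted line at 1 FPKM.

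Among the dopamine genes, the first enzyme and the vesicular carrier were above 1 FPKM while the second enzyme and the uptake carrier were near or at 0. Th (ENSRNOG00000020410), the rate-limiting enzyme of dopamine synthesis, was listed at 2.34 FPKM with deposited bounds of 1.64 and 3.03, which imply 45 fragments. Its row spans chr1:222935459-222942715 in build rn5. Slc18a2 (ENSRNOG00000008890, chr1:287783563-287817632) was at 3.09 FPKM (2.48 to 3.70), with 103 implied fragments. Slc18a2 was 1.32 times Th, and since the 95% counting interval of that ratio (0.931 to 1.88) holds 1, the pair could not be ordered at this depth. Before division by length the ratio was 2.29, because a fragment was worth 0.0519 FPKM in Th and 0.0300 FPKM in Slc18a2.

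Ddc (ENSRNOG00000004327, chr14:91689895-91793700), the decarboxylase that serves both dopamine and serotonin synthesis, was listed at 0.0926 FPKM with bounds of 0 and 0.228. About 2 fragments lay behind it, and the exact 95% Poisson interval of 2 fragments runs from 0.0119 to 0.356 FPKM. Th was 25.2 times Ddc, with an exact 95% interval of 6.19 to 202 that lies above 1 and is wide because of the few Ddc fragments. With 1 FPKM added to both genes, the ratio was 3.05. Slc6a3 (ENSRNOG00000017302, chr1:33746494-33787466), the dopamine uptake carrier, was listed at 0 with status OK, and no ratio to it was formed. For comparison, 14989 of all 19623 symbols were above 0. None of 76 ribosomal protein symbols was listed at 0, whereas all 37 mitochondrial rows were, the reason for which was not tested. A listed 0 is not read here as absence of the transcript.

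Genes linked to synthesis and recycling of tetrahydrobiopterin, the cofactor of Th, were read as a list of 8. All 8 reached 1 FPKM, against 61.0% of all symbols, and their median was 5.68 FPKM. At the top stood Qdpr, which regenerates the cofactor, at 13.6 FPKM (11.6 to 15.6), and Pcbd2, a pterin dehydratase, at 10.5 FPKM (6.93 to 14.0). Gch1, the first enzyme of the route, was lowest at 1.30 FPKM (0.578 to 2.02). Gch1 stood at 0.555 of Th, with an interval (0.299 to 1.03) that holds 1, and at 0.289 of it in fragments, without division by length. Th stood at 0.172 of Qdpr (0.124 to 0.238), a pair chosen after its values were seen.

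Genes of monoamine breakdown had a higher median than those of synthesis and uptake. All 7 listed genes reached 1 FPKM, against 61.0% of all symbols, and their median was 26.9 FPKM. The highest values were in the aldehyde dehydrogenase gene Aldh1a1 at 50.1 FPKM (47.2 to 53.0) and the aldose reductase gene Akr1b1 at 48.6 FPKM (44.9 to 52.3). Several of these enzymes also act on other substrates and in other retinal cells. Of the monoamine oxidases, Maoa was at 8.52 FPKM (7.21 to 9.83) and Maob at 2.56 FPKM (1.95 to 3.16). Maoa was 3.33 times Maob (2.53 to 4.40).

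Synthesis and uptake genes of the other monoamines were mostly low. Of these 10, 3 reached 1 FPKM, against 61.0% of all symbols, and the median was 0.308 FPKM. Pnmt, which converts noradrenaline to adrenaline, was highest at 2.95 FPKM (1.82 to 4.09), ahead of the plasma membrane monoamine transporter gene Slc29a4 at 1.84 FPKM (1.32 to 2.37). Hdc, the histamine-synthesizing enzyme, and Slc6a2, the noradrenaline transporter, were listed at 0. Pnmt was 4.14 times Dbh (2.28 to 7.52), the enzyme one step before it, at 0.712 FPKM, or 1.5 times in fragments; this pair was chosen after its values were seen. Among transcription factors known from dopaminergic neurons, Nr4a2 (also called NURR1) was at 1.58 FPKM (1.11 to 2.05) and Meis2, which is also expressed in many other amacrine cells, at 28.5 FPKM (26.6 to 30.4). The other 8 factors of this list were under 1 FPKM, and the midbrain factors En1, En2, Lmx1a, Lmx1b and Foxa1 were listed at 0. Nr4a2 stood at 0.676 of Th (0.448 to 1.02) and was 1.02 times Th in fragments, again chosen after the values were seen.

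Among the acetylcholine genes, the synthetic enzyme and the choline carrier could not be ordered and the breakdown enzyme was several times higher. Chat (ENSRNOG00000025012, chr16:10603341-10652313) was listed at 3.08 FPKM (2.30 to 3.86). Slc5a7 (ENSRNOG00000010597, chr9:4343096-4379724), which limits acetylcholine synthesis by choline supply, was at 2.43 FPKM (2.02 to 2.84) with 140 implied fragments. Slc5a7 stood at 0.788 of Chat (0.585 to 1.06), an interval that holds 1. Counted in fragments, without division by length, the ratio was 2.24, since a fragment was worth 0.0173 FPKM in Slc5a7 and 0.0492 FPKM in Chat. Chat was 1.32 times Th (0.897 to 1.93), so these enzymes of the acetylcholine and dopamine routes could not be ordered either.

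The gene of the vesicular acetylcholine transporter, Slc18a3, had no row under its symbol and is not analysed here. Rows without a symbol could not be searched for it. The row nearest to Chat carried no symbol, lay 22697 bp away and was at 3.40 FPKM. Which gene that row holds was not tested. In the RefSeq annotation of build GRCr8, Slc18a3 lies inside the span of Chat, the arrangement known as the cholinergic gene locus. In the deposited table no other row overlapped the Chat row, and none overlapped any of the other 7 measured genes. Whether fragments of Slc18a3 were counted under Chat was not tested.

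Ache (ENSRNOG00000050841, chr12:24487852-24491390) was listed at 14.1 FPKM (12.4 to 15.8) with 288 implied fragments, above 78.6% of all symbols. It was 4.59 times Chat (3.49 to 6.03) and 4.57 times Slc18a2 (3.65 to 5.72), the next gene in order, the second pair chosen after its values were seen; the ratio to Slc18a2 was 2.80 in fragments, without division by length. Ache was also 24.3 times Bche (13.6 to 43.2), the gene of the related enzyme butyrylcholinesterase, which was at 0.582 FPKM (0.246 to 0.918); with 1 FPKM added to both genes the ratio was 9.55. Of the anchors that hold the enzyme in place, Prima1, which ties it to neuronal membranes, was at 4.11 FPKM (3.24 to 4.98), and Colq, its collagen tail at the nerve-muscle junction, was listed at 0. Prima1 stood at 0.291 of Ache (0.230 to 0.369), chosen after the values were seen. Ache is also expressed in muscle and red blood cells. The counts at 1 FPKM in the 2 lists below stand beside 61.0% of all symbols. In the muscle list, 3 of 9 measured genes reached 1 FPKM, in a range of 0 to 2.93 FPKM, led by Tagln at 2.93 FPKM (2.05 to 3.81) and Myh11 at 2.06 FPKM (1.73 to 2.38), both smooth muscle genes. The third was Acta1, the actin gene of skeletal muscle, at 1.27 FPKM (0.698 to 1.85), chosen after its value was seen, while Myh4 and Chrna1, also of skeletal muscle, were at 0 and Acta2 had no row. In the red blood cell list, 3 of 5 reached 1 FPKM, in a range of 0 to 13.2 FPKM, led by the globin genes Hbb at 13.2 FPKM (9.99 to 16.4) and Hba1 at 10.3 FPKM (7.27 to 13.4), which shares sequence with Hba2; Alas2 was at 0. The part of either tissue in the Ache value was not tested.

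Choline supply genes showed a wide range. Of 12 genes for choline uptake, phosphorylation and acetylcholine breakdown, 6 reached 1 FPKM, against 61.0% of all symbols. Their median was 0.931 FPKM. Chkb, a choline kinase that turns choline toward phospholipid synthesis, was at 20.1 FPKM (18.0 to 22.2) and Slc44a1, a general choline carrier, at 13.8 FPKM (11.9 to 15.7). Among genes known from starburst amacrine cells, 8 of 10 reached 1 FPKM, against 61.0% of all symbols. The list's median was 6.29 FPKM. Under 1 FPKM were Fezf1, at 0.552 FPKM (0.267 to 0.837), and Cntn6, with deposited bounds of 0.622 and 1.26 FPKM. Both were named after their values were seen. Isl1, a homeobox gene also used by bipolar and ganglion cells, was highest at 27.5 FPKM (24.3 to 30.8), followed by Sox2, also expressed in Müller glia, at 9.23 FPKM (8.04 to 10.4). Megf10, a receptor that spaces starburst cells in mice, was at 5.27 FPKM (4.61 to 5.94), which is 1.71 times Chat (1.30 to 2.26), or 4.0 times in fragments; this pair was chosen after its values were seen.

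**Figure D2:**
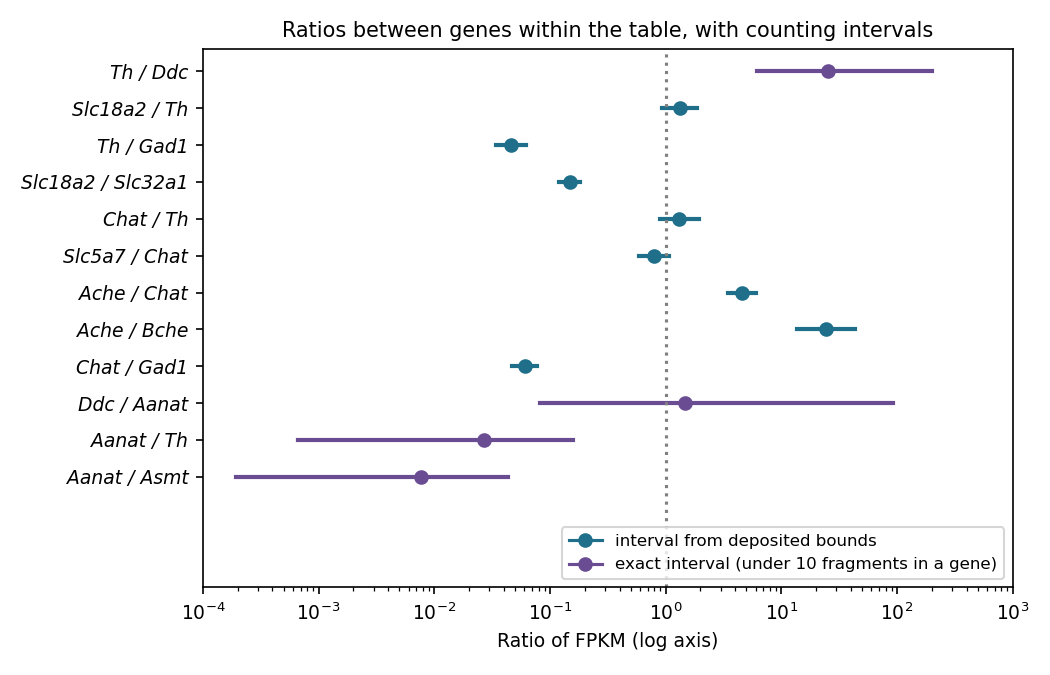
Ratios of FPKM (x axis, logarithmic) for 12 gene pairs (y axis, numerator first), with points for the ratios and bars for 95% counting intervals. Bars of Slc18a2 over Th, Chat over Th, Slc5a7 over Chat and Ddc over Aanat cross the dotted line at 1, those of Th over Ddc, Ache over Chat and Ache over Bche lie right of it, and the other 5 lie left of it.

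Aanat (ENSRNOG00000011182, chr10:105230818-105235318) was listed at 0.0626 FPKM with bounds of 0 and 0.188, the value of 1 fragment. The exact 95% Poisson interval of 1 fragment runs from 0.00159 to 0.349 FPKM. Aanat stood at 0.0268 of Th, with an exact interval (0.000664 to 0.157) that lies below 1; with 1 FPKM added to both genes the ratio was 0.318. Ddc was 1.48 times Aanat, but with so few fragments the exact interval (0.0820 to 92.9) gives no order. The labels used here state no time of day for the collection of the eyes.

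The steps of the melatonin route before and after Aanat were uneven. Asmt, the final enzyme, was at 8.21 FPKM (6.80 to 9.62) with 136 implied fragments, and Aanat stood at 0.00763 of it (exact interval 0.000192 to 0.0432). Ddc, which makes serotonin in this route, stood at 0.0113 of Asmt (exact interval 0.00144 to 0.0442). Of the tryptophan hydroxylases that begin serotonin synthesis, Tph2, the form of brain neurons, was at 1.26 FPKM (0.849 to 1.68) and Tph1, the form of the pineal gland, at 0.165 FPKM (0.0445 to 0.285). Tph2 was 7.66 times Tph1 (exact interval 3.61 to 21.8). With 1 FPKM added to both genes of a pair, these ratios were 0.115 for Aanat over Asmt, 0.119 for Ddc over Asmt and 1.94 for Tph2 over Tph1. These 3 pairs and both hydroxylase values were chosen after their values were seen.

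Most genes of the melatonin list, which holds enzymes as well as regulators of Aanat, were listed at higher levels than Aanat. Counting Ddc and Aanat themselves, 15 of 18 genes of the list reached 1 FPKM, against 61.0% of all symbols. The median of all 18 was 24.2 FPKM, and those under 1 FPKM were Aanat, Ddc and Tph1. Ywhae, a 14-3-3 protein of the family that binds and protects the Aanat enzyme, was highest at 211 FPKM (205 to 217). Crx, the photoreceptor homeodomain factor known to act on pineal and retinal Aanat, was at 192 FPKM (183 to 201). Aanat stood at 0.000326 of Crx (exact interval 8.26e-06 to 0.00182), or 0.00551 with 1 FPKM added to both genes. The Aanat window printed above holds GGATTA, a motif of this factor, which is a match of letters only.

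The median of the 8 measured dopamine, acetylcholine and melatonin genes, 2.38 FPKM, was set beside that of genes of fast transmission. In the list for GABA, glycine and glutamate, 7 of 8 genes reached 1 FPKM, against 61.0% of all symbols. The median was 19.8 FPKM. Its highest members were Slc17a7, which loads glutamate into vesicles, at 439 FPKM (431 to 448) and Gad1, the GABA-synthesizing enzyme of many amacrine cells, at 50.8 FPKM (48.5 to 53.2). The lists overlap in level. Slc6a5, a glycine uptake gene, was listed at 0.0247 FPKM (0 to 0.0596), below Aanat, but 2 fragments against 1 give no order. The list's other glycine uptake gene, Slc6a9, was at 42.2 FPKM (40.0 to 44.3). The vesicular glutamate transporter gene Slc17a8, at 1.09 FPKM (0.740 to 1.43), was listed below Th, and Ache at 14.1 FPKM above Slc6a5 and Slc17a8. Slc6a5, Slc6a9 and Slc17a8 were named after their values were seen. Th stood at 0.0460 of Gad1 (0.0342 to 0.0618) and Chat at 0.0606 of it (0.0471 to 0.0779). Slc18a2 stood at 0.148 of Slc32a1 (0.120 to 0.183), the vesicular carrier of GABA and glycine, at 20.8 FPKM (19.0 to 22.6). Fewer cells of a type and less RNA per cell cannot be told apart in bulk RNA. Counted in fragments, without division by length, Th stood at 0.0240 and Chat at 0.0334 of Gad1. These ratios carry no spread between animals.

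**Figure D3:**
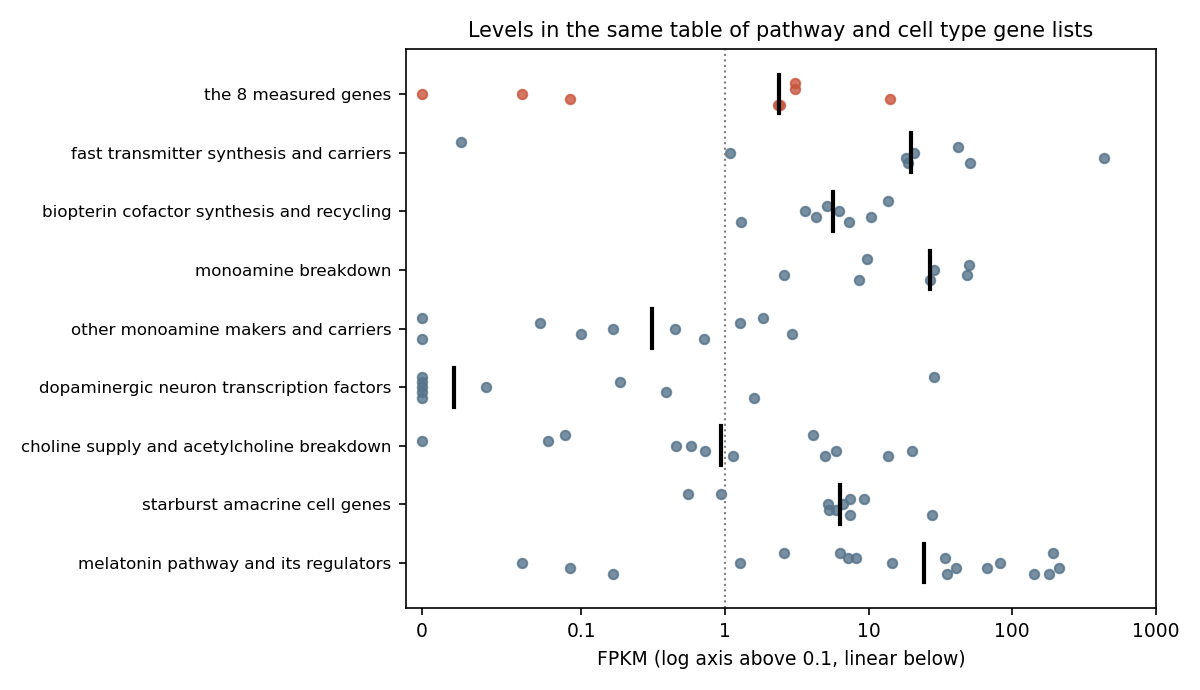
FPKM (x axis, logarithmic above 0.1 and linear below) of every measured gene in each list (y axis), with 1 point per gene and a black bar at the list's median. The 8 measured genes have a median of 2.38 FPKM, against 19.8 FPKM for fast transmitter genes, and the melatonin list includes Ddc and Aanat at its low end.

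By rank, Slc18a2 and Chat lay above 49.6% and 49.5% of all symbols, Slc5a7 and Th above 46.9% and 46.5%, and Ddc and Aanat above 26.4% and 25.4%. Among symbols above 0 alone, these places were 34.0% and 33.9% for Slc18a2 and Chat, 30.4% and 29.9% for Slc5a7 and Th, and 3.67% and 2.33% for Ddc and Aanat. The neighbours Slc18a2 and Chat differed 1.00-fold (0.733 to 1.37) and Slc5a7 and Th 1.04-fold (0.742 to 1.45), pairs chosen after the order was known. Slc18a2 was 1.27 times Slc5a7 (0.987 to 1.64), likewise chosen afterwards. The intervals of all 6 pairs within this middle step hold 1, so the 4 genes could not be ordered among themselves beyond counting error. Counted in fragments their order differed, with Slc18a2 at 1.65 times Chat, Slc5a7 at 3.11 times Th and Slc18a2 at 0.736 of Slc5a7, since fragments are not scaled to length.

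**Figure D4:**
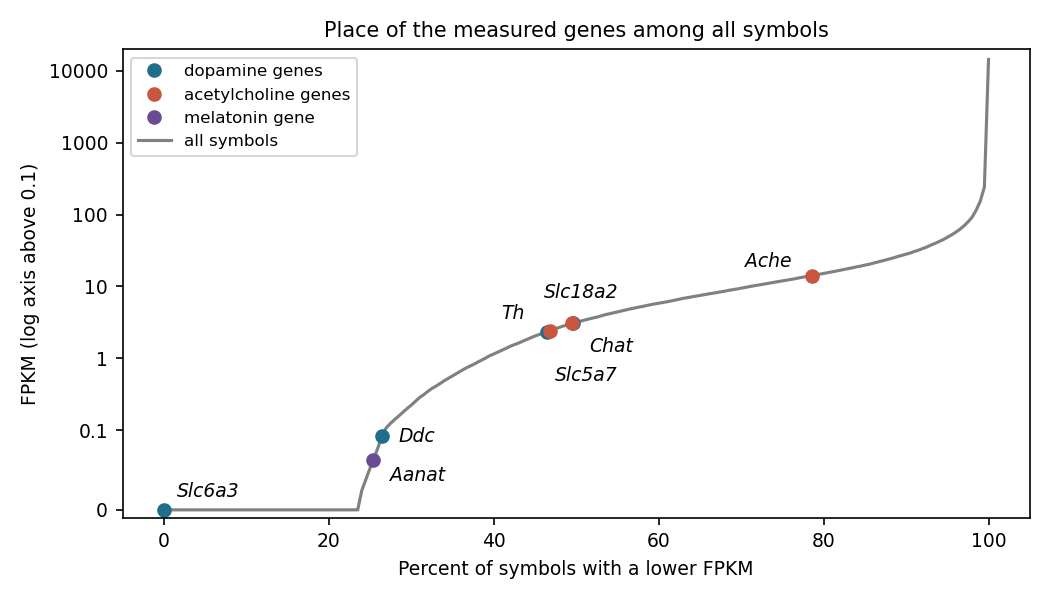
FPKM (y axis, logarithmic above 0.1) against the percent of symbols with a lower FPKM (x axis), with a grey line for all symbols and points for the 8 measured genes. Ache lies above 78.6% of symbols, the middle 4 genes between 46.5% and 49.6%, and Ddc and Aanat just above the symbols listed at 0.

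The tissue label was checked against marker genes. All 12 neural retina markers reached 1 FPKM, led by rod transducin Gnat1 at 6316 FPKM and recoverin Rcvrn at 2372 FPKM. In the pigment epithelium and choroid list, 6 of 9 reached 1 FPKM, led by Ttr at 152 FPKM and Rgr at 24.0 FPKM. Rpe65 was at 20.7 FPKM, Tyrp1 at 14.2 FPKM, Dct at 14.0 FPKM and Pmel at 4.94 FPKM. Slc45a2 (0.815 FPKM), Tyr (0.471 FPKM) and Best1 (0.270 FPKM) were under 1 FPKM. Genes of this list other than Ttr and Rgr were named after their values were seen. In the pineal gland list, 9 of 10 reached 1 FPKM, led by Gngt2 at 47.2 FPKM, which cones also express, and Mat2a at 19.8 FPKM, which is expressed widely. Of all symbols, 61.0% reached 1 FPKM, so these counts alone do not tell the tissues apart. The part of other tissues in the values of the measured genes was not tested.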

How the data were processed

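RNA of the neural retina was sequenced from libraries made with an Ion Total RNA-seq kit, per the labels' protocols. The authors deposited 1 gene table in the format of Cufflinks, per the file headers, with an FPKM and a lower and an upper bound per gene. Version 2.0.8 of Cufflinks and genome build rn5 are named in the submitters' processing notes. Not given in the sources used here are the aligner, annotation release, confidence level and any pooling. No column names a sample, so the planned limma contrasts between groups were not run.

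From the table, FPKM of rows sharing a symbol were summed. Fragments were taken as the square of 2 FPKM over the distance to the upper bound, and sum to 6124332 over 26406 rows. This takes the bounds to lie 2 standard errors of a count from the value, which was not tested. Ratios between genes carry 95% intervals from the deposited bounds on the log scale, or, where a gene had under 10 fragments, exact conditional (Clopper-Pearson) intervals of the rounded fragments. The table's starts count from 0: spans equalled the RefSeq length in 1229 rows on that reading and in 263 otherwise. Starts are printed counted from 1. No gene was filtered out for its level, and some list genes are not reported here.

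The genes, 13 further lists and 19 pairs were chosen with earlier results of these data known, and 12 pairs were added after the values were seen. All genes of interest and of the 19 pairs are named, with the 2 highest and every listed 0 of each list. Other genes given a value fall outside that rule and were chosen after their values were seen. They are Dbh, Tph1, Tph2, Asmt, Prima1, Megf10, Acta1, Slc6a5, Slc6a9, Slc17a8, Fezf1 and Cntn6. Also among them are the genes next to the measured genes on the chromosomes, and the pigment epithelium list genes other than Ttr and Rgr. Other minimum values, pseudocounts, row choices and fragments in place of FPKM were tried. Python 3.11.15, numpy 2.4.6, pandas 2.3.3, scipy 1.17.1 and matplotlib 3.10.9 were used.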

Additional observations from a re-analysis of the deposited data

How the results depend on the processing

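The count of 5 genes at 1 FPKM or more was the same at minimums of 0.5 and 2 FPKM and by the lower deposited bound, and was 1 at a minimum of 5 FPKM. With implied fragments in place of FPKM, which removes the division by length, Slc18a2 over Th was 2.29, Slc5a7 over Chat 2.24, Ache over Slc18a2 2.80, Slc18a2 over Chat 1.65, Slc18a2 over Slc5a7 0.736 and Slc5a7 over Th 3.11. With a pseudocount of 1 FPKM, Th over Ddc was 3.05 and Aanat over Th 0.318. Of the settings tried on 26 ratios, a pseudocount and the added exact interval cannot turn a direction. With fragments, the setting that could, 0 of the 17 ratios whose interval left 1 out turned, and 15 of all 26 left their interval. FPKM of the 8 genes were the same under exact symbols and with the highest row only, since each has 1 row, so those settings say nothing of stability. Of 16 recomputed ranks, 12 moved beyond the deposited bounds; among symbols above 0, Ddc and Aanat lay above 3.67% and 2.33%. No paired analysis was possible because no library has a column of its own, and the group contrasts, the left-out replicates and their pseudocount were therefore not run. Depth limits Slc6a3, with 0 implied fragments and no ratio, and Ddc and Aanat, which rest on 2 fragments and 1 fragment.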

Other observations

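Genes next to the measured genes on the rn5 chromosomes, read after the values were seen, differed widely in level. The row nearest to Slc6a3, which was listed at 0, was Lpcat1, a phospholipid acyltransferase gene whose loss causes photoreceptor degeneration in mice, at 86.2 FPKM and 15166 bp away. Beside Ache at 14.1 FPKM, Ufsp1 lay 533 bp away at 12.6 FPKM. Beside Slc18a2 at 3.09 FPKM, Pdzd8 lay 892 bp away at 13.3 FPKM. Aanat at 0.0626 FPKM had Rhbdf2 as its nearest row, 1357 bp away at 0.966 FPKM, and Ddc at 0.0926 FPKM had Fignl1, 1486 bp away at 0.997 FPKM. Farther off, Th had Ascl2, 69971 bp away at 0.124 FPKM, and Slc5a7 had Sult1c3, 317485 bp away at 0.0763 FPKM. The row nearest to Chat, 22697 bp away at 3.40 FPKM, carried no symbol.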
